A study of Mus musculus with 6 samples.

Results

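The TCR alpha variable segments described here were the 127 features whose symbol began with Trav, out of 32285 features in the matrices and 128 Trav features. They were chosen by symbol alone, and Trav11 was left out of every sum and share. Raw counts of unique molecular identifiers (UMIs) were read in 6 single-cell RNA sequencing libraries of kidney αβ T cells. All cells came from wild-type male C57BL/6J mice aged 7 to 8 weeks. The control groups were normal kidneys, and the IR groups were kidneys in which both renal pedicles had been clamped for 30 min and then reperfused. Live cells positive for CD45 and the αβ T cell receptor (TCR) had been sorted as CD4+, CD8+ or double negative (DN, neither CD4 nor CD8). Each of the 6 groups had 1 library, so no difference has a replicate check and no test was run. Intervals in parentheses are exact 95% intervals that cover counting error only. Those of UMI sums, shares and ratios treat each UMI as an independent draw, which UMIs of 1 cell are not. They leave out the sampling of cells and are too narrow where few cells hold many of the UMIs. The sources used here do not say how many mice gave each library.

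The alpha chain of the T cell receptor is assembled in the thymus by joining 1 of many Trav segments to a Traj (joining) segment, which is then spliced to the constant gene Trac. Further rounds of recombination on the same allele use Trav segments farther from the Traj cluster and Traj segments closer to Trac. A mature T cell and its descendants keep the rearranged alpha genes, which are a source of Trav transcripts. A UMI in a barcode can also come from elsewhere, such as a second allele, free RNA or another cell. The C57BL/6 locus holds near-identical repeats of a large block, and the copies are told apart by the letter d or n in the symbol. Segments with dv in the symbol can also join the delta chain.

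In GENCODE M21 (GRCm38, the mm10 assembly), all 127 members had a position on chromosome 14, between 52427928 and 53977678 on the + strand, upstream of 60 Traj segments (54155005 to 54218842) and of Trac (54220521 to 54224206). The letter d was in 39 symbols, the letter n in 34, and 54 had neither. Joining copies that differ only in that letter, or in the dv suffix, gave 57 copy groups in 23 families, and 110 members lay in the 40 groups with more than 1 member. Of the members, 107 were annotated as V genes and 20 as pseudogenes. The 3′ end of the annotated transcript of Trav4-4-dv10, the segment with most UMIs, is shown with those of its copies, which differ from it at the 8 bases in capitals and are identical to each other.
Trav4-4-dv10 (chr14:53683899-53684177, + strand): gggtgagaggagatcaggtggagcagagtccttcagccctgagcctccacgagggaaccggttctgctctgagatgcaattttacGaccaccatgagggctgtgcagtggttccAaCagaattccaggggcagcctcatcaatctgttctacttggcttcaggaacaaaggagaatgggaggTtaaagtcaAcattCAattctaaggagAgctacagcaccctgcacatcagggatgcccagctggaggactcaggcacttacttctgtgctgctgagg
Trav4n-4 (chr14:53302281-53302559, + strand): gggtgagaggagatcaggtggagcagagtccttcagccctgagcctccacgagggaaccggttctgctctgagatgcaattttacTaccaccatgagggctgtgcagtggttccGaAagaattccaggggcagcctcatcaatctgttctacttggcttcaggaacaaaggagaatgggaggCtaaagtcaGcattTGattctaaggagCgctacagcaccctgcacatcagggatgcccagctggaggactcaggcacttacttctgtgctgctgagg
Trav4d-4 (chr14:52991111-52991389, + strand): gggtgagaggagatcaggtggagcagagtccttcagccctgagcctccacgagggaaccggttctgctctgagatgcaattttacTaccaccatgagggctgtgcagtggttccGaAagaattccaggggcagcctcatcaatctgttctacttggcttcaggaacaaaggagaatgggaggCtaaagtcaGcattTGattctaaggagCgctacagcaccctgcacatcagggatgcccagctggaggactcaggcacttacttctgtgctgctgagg

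The same stretch of the 3 Trav16 copies is shown because that group led usage in 5 of the 6 libraries. Capitals mark the 6 positions at which the copies are not all alike. Trav16n and Trav16 differ at 4 of these bases, Trav16n and Trav16d-dv11 at 3, and Trav16 and Trav16d-dv11 at 5.
Trav16n (chr14:53351343-53351621, + strand): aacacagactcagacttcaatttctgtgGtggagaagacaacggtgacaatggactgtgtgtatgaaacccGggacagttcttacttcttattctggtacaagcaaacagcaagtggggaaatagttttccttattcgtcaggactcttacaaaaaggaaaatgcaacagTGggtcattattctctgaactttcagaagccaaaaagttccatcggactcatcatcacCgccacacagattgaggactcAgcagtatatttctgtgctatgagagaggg
Trav16 (chr14:53743427-53743705, + strand): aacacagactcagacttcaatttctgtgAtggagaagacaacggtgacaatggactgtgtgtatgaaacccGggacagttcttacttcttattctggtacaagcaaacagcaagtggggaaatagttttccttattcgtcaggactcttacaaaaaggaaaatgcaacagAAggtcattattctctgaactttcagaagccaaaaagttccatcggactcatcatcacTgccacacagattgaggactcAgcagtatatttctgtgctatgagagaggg
Trav16d-dv11 (chr14:53047543-53047821, + strand): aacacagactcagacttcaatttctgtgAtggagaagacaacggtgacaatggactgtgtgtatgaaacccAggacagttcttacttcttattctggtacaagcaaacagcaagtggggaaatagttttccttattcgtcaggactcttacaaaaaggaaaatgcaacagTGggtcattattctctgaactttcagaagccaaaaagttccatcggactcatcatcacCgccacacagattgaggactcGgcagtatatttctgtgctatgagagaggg

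Such differences bear on which copies can be counted, since Cell Ranger does not assign a read that matches 2 genes equally well. A window of 91 bases was taken to stand for a read. For 39 of the 127 members no window of 91 bases in the annotated transcript was unique to the gene. Of these 39, 28 had 0 UMIs in the kept cells of all 6 libraries, and the other 11 held 24 UMIs together, with at most 8 for 1 member. Of the 88 members with a unique window, 83 had a UMI and 5 had none. In all, 33 members were at 0, 20 had 1 to 9 UMIs and 38 had at least 100. Trav4n-4 and Trav4d-4, whose printed stretches are identical, had no unique window, whereas 75.3% of the windows of Trav4-4-dv10 were unique. The 20 pseudogenes held 216 UMIs over 11 members, with at most 81 for 1 of them. A low count of a single copy therefore does not show low use, and shares below are given per copy group unless a segment is named with its full symbol. The order of segments within a library also rests on these windows, which are the same for all 6 libraries.

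**Figure D1:**
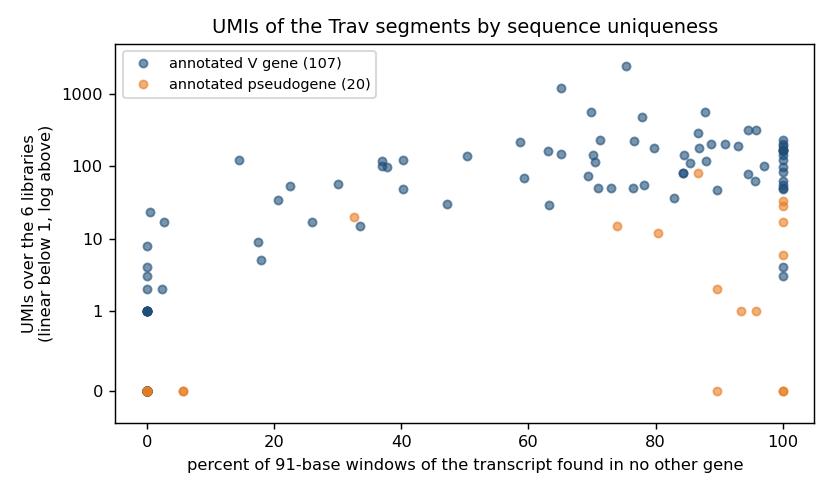
Each point is 1 of the 127 Trav segments. The x axis gives the percent of the 91-base windows of its transcript found in no other gene, and the y axis its UMIs summed over the 6 libraries (linear below 1, logarithmic above). Of the 39 segments at 0% on the x axis, none passed 8 UMIs.

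After filtering, 48277 of 54039 barcodes were kept. Control libraries held 8913 to 9313 kept cells and 45604821 to 60824647 retained UMIs, and IR libraries 4141 to 10212 cells and 4516303 to 15626782 UMIs. The sorts were as labelled: Cd4 was at 210 CPM (the UMI count scaled to the retained UMIs of the library) in control CD4+ and 145 CPM in IR CD4+, against 0.153 to 0.456 CPM in the other 4 libraries, and Cd8a was at 867 CPM in control CD8+ and 392 CPM in IR CD8+, against at most 0.247 CPM elsewhere. Pairs of control libraries shared 20 to 30 barcodes of kept cells, and pairs of IR libraries 101 to 108. The headers of the control files name Cell Ranger 5.0.1 and those of the IR files 6.0.1, so condition, software and the lower depth of the IR libraries cannot be told apart.

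The summed Trav level was highest in CD8+ cells and lowest in DN cells, in both conditions. The kept cells held 3022, 5980 and 1552 Trav UMIs in the control CD4+, CD8+ and DN libraries, and 1404, 741 and 237 in the same IR subsets. In CPM this was 59.7 (57.6 to 61.9), 131 (128 to 134) and 25.5 (24.3 to 26.8) in the controls and 89.8 (85.2 to 94.7), 113 (105 to 121) and 52.5 (46.0 to 59.6) in the IR libraries. No 2 of the 3 subsets overlapped in either condition. Control DN was at 0.427 (0.402 to 0.454) of control CD4+ and at 0.195 (0.184 to 0.206) of control CD8+, and IR DN at 0.584 (0.507 to 0.671) of IR CD4+ and 0.466 (0.401 to 0.540) of IR CD8+. Adding Trav11, which made up 15.9% of all Trav UMIs of control DN and 10.2% of those of IR DN, raised these 2 libraries to 30.3 and 58.5 CPM and left control DN lowest and IR DN second lowest, below the 63.7 CPM of control CD4+.

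Set against the constant gene, the order was the same. There were 7.27 (7.00 to 7.54), 15.8 (15.4 to 16.2) and 3.52 (3.34 to 3.70) Trav UMIs per 100 Trac UMIs in the control CD4+, CD8+ and DN libraries, and 9.25 (8.75 to 9.77), 13.6 (12.6 to 14.7) and 6.73 (5.87 to 7.68) in the IR libraries. Trac itself varied less, from 725 CPM in control DN to 972 CPM in IR CD4+. The beta variable segments (Trbv) had another order in the controls. They summed to 57.4, 89.0 and 80.4 CPM in the control CD4+, CD8+ and DN libraries and to 113, 138 and 100 CPM in the IR libraries, so that CD4+ cells were lowest in the controls and DN cells after IR. Beside the low Trav level, the gamma delta list of 5 genes was higher in DN cells, at 334 CPM in control DN and 239 CPM in IR DN against 13.97 to 98.7 CPM in the other 4 libraries, with 1 of its 5 genes at 0 in IR CD8+ and IR DN. Its defining constant gene Trdc was at 2.53 and 1.99 CPM in control DN and IR DN, against 3.20 to 5.59 CPM elsewhere. Zbtb16, a regulator of invariant NKT cells, was at 258 and 124 CPM in control DN and IR DN and at 202, 2.00, 76.9 and 2.13 CPM in control CD4+, control CD8+, IR CD4+ and IR CD8+. The NK list of 3 genes was at 228 and 233 CPM in DN cells against 36.6 to 71.5 CPM elsewhere. The endothelial list of 3 genes was lowest in DN cells, as Trav was, at 45.3 CPM in control DN, with 1 of its genes at 0, and 54.7 CPM in IR DN against 85.4 to 129.7 CPM elsewhere. The part of such cells in the Trav level was not tested.

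The change with IR was not the same in the 3 subsets. The Trav level was 1.504-fold (1.41 to 1.60) higher in IR CD4+ than in control CD4+ and 2.06-fold (1.79 to 2.36) higher in IR DN than in control DN, but IR CD8+ was at 0.858 (0.794 to 0.927) of control CD8+. The CD8+ direction turned when 142 control CD8+ cells rich in Trav4-4-dv10 (described below) were left out, since control CD8+ then fell to 88.6 CPM. Markers of other cells moved with IR as well: the myeloid list of 8 genes was at 138, 126 and 118 CPM in the control CD4+, CD8+ and DN libraries and 315, 177 and 199.5 CPM after IR, and the erythroid list of 2 genes at 1.01, 0.855 and 1.003 CPM against 25.3, 18.7 and 18.4 CPM. The tubule list of 4 genes, with at most 119 UMIs per library, was at 1.40, 1.56 and 1.10 CPM against 7.62, 2.73 and 2.21 CPM. The B cell list of 4 genes was lower after IR, at 180, 173 and 171 CPM against 159, 132 and 118 CPM. The endothelial list was lower in CD4+ and CD8+ cells and higher in DN cells. Their part in the Trav level was not tested. In bulk sums of this kind, fewer cells with a well captured alpha transcript and less transcript per cell cannot be told apart.

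**Figure D2:**
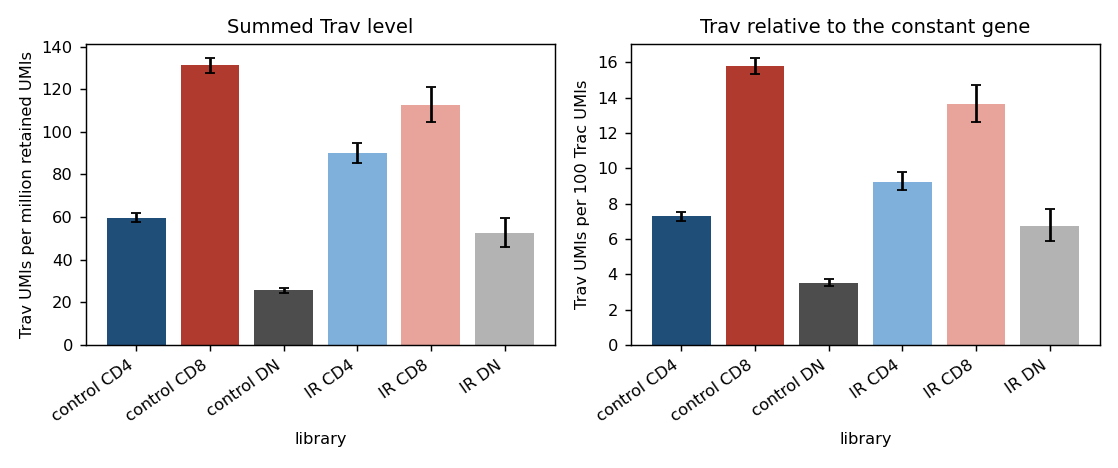
Bars give the summed Trav UMIs of each library in CPM (left) and per 100 Trac UMIs (right), with exact 95% counting intervals and 1 library per bar. Control DN is the lowest bar in both panels, at 25.5 CPM and 3.52 per 100 Trac UMIs, and control CD8+ the highest.

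Most cells gave no Trav UMI. Without thinning, 20.3%, 28.0% and 12.6% of cells in the control CD4+, CD8+ and DN libraries and 11.1%, 9.61% and 4.76% of IR cells had one. After thinning every cell to 1000 UMIs, which left out 34 to 566 cells per library, the shares were 4.70% (4.28 to 5.16), 7.95% (7.39 to 8.53) and 2.04% (1.75 to 2.35) in the controls and 4.90% (4.49 to 5.34), 5.38% (4.83 to 5.97) and 3.17% (2.63 to 3.79) in the IR libraries. DN cells were lowest at equal depth as well. Of 65 barcodes over the 6 libraries without a Cd3 or Cd2 UMI but with at least 3 myeloid or B cell UMIs, 0 had a Trav UMI at this depth, which allows a share of up to 4.62% (3 of 65; the exact interval reaches 5.52%). Their median depth before thinning was 1916 UMIs, against medians of 1451 to 8361 UMIs over kept cells.

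Usage, the share of a library's Trav UMIs, was spread over many segments with few leaders. The 12 segments with the highest mean usage were, in order, Trav16n, Trav4-4-dv10, Trav16, Trav3-3, Trav6-7-dv9, Trav5-4, Trav16d-dv11, Trav13-1, Trav6n-6, Trav14n-3, Trav12-2 and Trav14d-3-dv8. Trav16n had 200, 532 and 170 UMIs in the control CD4+, CD8+ and DN libraries and 146, 150 and 39 in the same IR subsets, a usage of 6.62%, 8.90%, 10.95%, 10.4%, 20.2% and 16.5%. It was thus the leading single segment in every library but control CD4+ and control CD8+, where Trav4-4-dv10 led. Trav3-3 varied less, at 5.06%, 3.43%, 5.22%, 4.56%, 7.15% and 5.06% in the same order. Trav6-7-dv9 was at 2.98%, 5.65%, 1.68%, 5.06%, 5.40% and 3.798%, lowest in control DN. Trav6n-6 showed the other order, with 4.32% (3.36 to 5.45) in control DN against 1.22% (0.863 to 1.68) in control CD4+ and 0.803% (0.592 to 1.06) in control CD8+, and 1.85%, 2.02% and 3.798% in the IR libraries. Mean usage of the other 5 of these 12 segments outside the Trav16 and Trav4 groups lay between 2.15% for Trav14d-3-dv8 and 2.70% for Trav5-4.

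By family, Trav16 led with a mean usage of 19.9%, followed by Trav6 at 12.4%, Trav4 at 10.5%, Trav13 at 9.10% and Trav14 at 8.54%. The spread across libraries was widest for Trav4 and Trav16: Trav4 ranged from 2.02% to 37.0% and Trav16 from 11.3% to 36.0%, whereas Trav6 ranged from 9.72% to 17.7%. The effective number of copy groups (inverse Simpson index, the number of equally used groups that would give the same chance that 2 random UMIs name 1 group) was 23.7, 6.48 and 20.6 in the control CD4+, CD8+ and DN libraries and 18.1, 6.70 and 11.7 in the IR libraries. Both CD8+ libraries were therefore the most concentrated, but on different groups: the Trav4-4 group took 35.7% of control CD8+ and the Trav16 group 36.0% of IR CD8+. Counting cells in place of UMIs moved control CD8+ to 17.8, so that its low value rested on UMIs per cell.

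**Figure D3:**
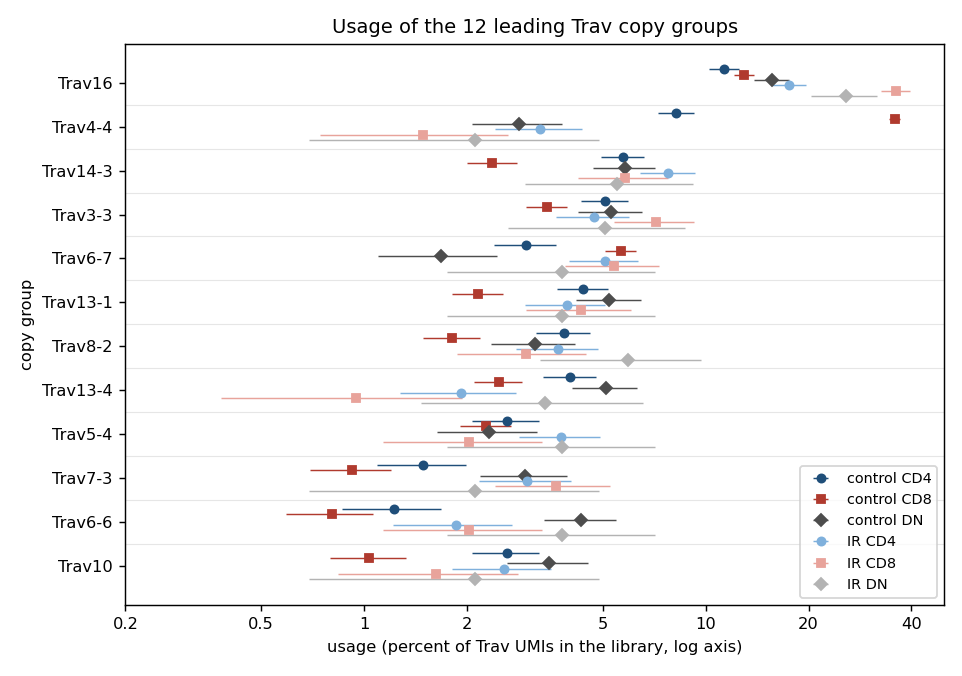
Points give the usage of the 12 leading copy groups in percent of Trav UMIs (log axis), with exact 95% binomial intervals, and colours and markers give the 6 libraries. Trav4-4 stands at 35.7% in control CD8+ alone, and Trav16 at 36.0% in IR CD8+.

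Trav4-4-dv10 had 248, 2132 and 43 UMIs in the control CD4+, CD8+ and DN libraries and 46, 11 and 5 in the same IR subsets. Its usage was 8.21% (7.25 to 9.24), 35.7% (34.4 to 36.9), 2.77% (2.01 to 3.71), 3.28% (2.41 to 4.35), 1.48% (0.743 to 2.64) and 2.11% (0.688 to 4.85). The control CD8+ value stood apart from the other 5. It came from few cells. The segment was found in 259 of the 9313 control CD8+ cells, with 8.23 UMIs per positive cell and up to 38 in 1 cell. Counted as cells, the Trav4-4 group made up 8.67% of detections in control CD8+. The interval of 34.4 to 36.9 counts UMIs and does not cover the sampling of these cells. In the other 5 libraries positive cells held 1.22 to 3.07 UMIs of it, and the other leading segments held 1.04 to 1.56 per positive cell in control CD8+.

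The counts per cell fell into a low and a high range. In control CD8+, 83 cells had 1 UMI, 34 had 2 to 4 and 142 had 5 or more, and these 142 cells (1.52% of the library) held 1955 of the 2132 UMIs. The limit of 5 was chosen after the counts were seen, with 19 cells just below it at 3 or 4 UMIs and 9 just above it at 5 or 6. Control CD4+ had 12 such cells, control DN 2, and the IR libraries 0. Kept cells had a median of 6627 to 8361 UMIs in the controls but 1451 to 2351 in the IR libraries, so the limit was harder to reach after IR. Trav16n, used here for scale, had 9 control CD8+ cells with 5 or more UMIs among its 342 positive cells. The Trav4-4-dv10 UMIs outside cells with 5 or more of them amounted to 2.96% of the Trav UMIs of control CD8+, 5.23% of those of control CD4+ and 0.966% of those of control DN.

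**Figure D4:**
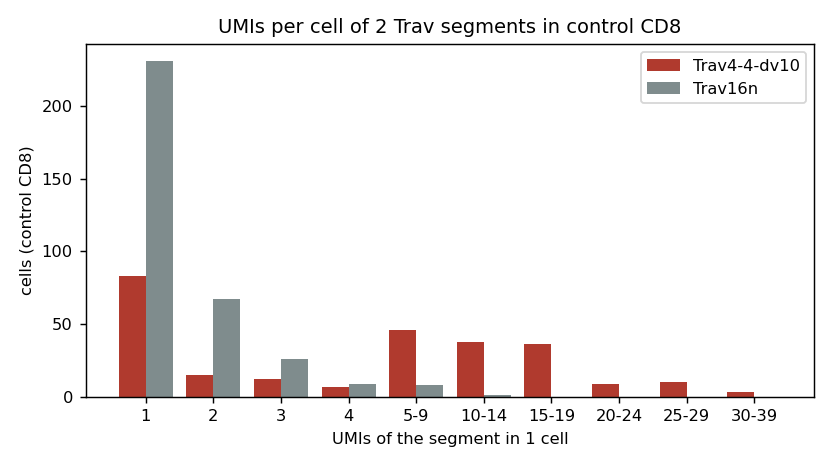
Bars count the control CD8+ cells with the given number of UMIs of Trav4-4-dv10 or of Trav16n, for comparison. Trav16n falls off from 231 cells at 1 UMI, whereas Trav4-4-dv10 has 83 cells at 1 UMI and 46, 38 and 36 cells at 5 to 9, 10 to 14 and 15 to 19 UMIs.

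Many of the 142 cells had the same partners. The joining segment and the beta variable segment found most often in them, Traj49 and Trbv3, were picked after their counts were seen. Traj49 had a UMI in 56 of the 142 cells (39.4%, 31.3 to 48.0), against 40 of the 9054 control CD8+ cells without Trav4-4-dv10 (0.442%, 0.316 to 0.601). Among the 89 of the 142 cells with any Traj UMI, Traj49 was found in 62.9%, ahead of Traj18 in 29.2%, which was the most frequent Traj in cells without the segment. Traj27 was found in 19.1%. Some cells thus held UMIs of more than 1 Traj, so a Traj UMI need not come from the joined segment. Trbv3 had a UMI in 62 of the 142 cells (43.7%, 35.4 to 52.2) and in 672 of the 9054 (7.42%, 6.89 to 7.98). It was in 77.5% of the 80 of these cells with any Trbv UMI, and in 24.3% of the 2766 cells without Trav4-4-dv10 that had one, where it also ranked first. In all, 25 cells had both, 93 had at least 1, and the others had neither. Cells with 2 to 4 Trav4-4-dv10 UMIs had Traj49 in 8 of 34 and Trbv3 in 4 of 34, and cells with 1 UMI in 0 and 2 of 83. The 12 control CD4+ cells with 5 or more UMIs seldom had these partners: 1 had Traj49 and 0 had Trbv3, although 11 had a Traj and 5 a Trbv UMI.

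Other Trav segments were found in the same 142 cells. Trav3-3 was in 17 of them (11.97%, 7.13 to 18.5) against 131 of 9054 (1.45%), and Trav9-1 in 13 (9.15%, 4.97 to 15.1) against 31 of 9054 (0.342%), whereas Trav16n was in 2 (1.41%) against 337 (3.72%). Trav3-3 lies 2 segments upstream of Trav4-4-dv10. The 142 cells had a median of 7171 UMIs, against 6617 in cells without Trav4-4-dv10, and 0 of their barcodes occurred in another library. The part of depth in these counts was not tested.

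The high cells also differed in genes of T cell state, a list drawn up after the cells were found. The inhibitory receptor genes Pdcd1 and Ctla4 were at 208 and 242 CPM against 61.7 and 100 CPM in control CD8+ cells without Trav4-4-dv10, and the granzyme gene Gzmk at 405 against 171 CPM. The lymph node homing receptor gene Ccr7 was at 18.2 CPM against 86.5 CPM, the IL-7 receptor gene Il7r at 74.9 against 380 CPM, and Dapl1 at 14.8 against 152 CPM. Trac did not stand higher, at 682 against 833 CPM, and Cd8a was at 891 against 868 CPM. Cd8b1 was at 1217 against 1373 CPM and Cd3e at 941 against 747 CPM. The beta constant gene Trbc1 was at 2581 against 1154 CPM.

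The Trav16 group led in every library but control CD8+, where it was second. It had 342, 775 and 242 UMIs in the control CD4+, CD8+ and DN libraries and 246, 267 and 61 in the same IR subsets. Its usage was 11.3% (10.2 to 12.5), 13.0% (12.1 to 13.8) and 15.6% (13.8 to 17.5) in the controls, and 17.5% (15.6 to 19.6), 36.0% (32.6 to 39.6) and 25.7% (20.3 to 31.8) in the IR libraries. Each IR library lay above the control library of its subset. Unlike Trav4-4-dv10, it was spread over cells, with 1.27 to 1.58 UMIs per positive cell, and the 267 UMIs of IR CD8+ came from 200 cells, none with more than 5. Trav16n made up 58.5%, 68.6% and 70.2% of the group in the controls and 59.3%, 56.2% and 63.9% in the IR libraries. The copy Trav16 made up 25.4%, 22.1%, 15.3%, 32.1%, 34.8% (29.1 to 40.9) and 18.0%, so that its share within the group was highest in IR CD8+. The most frequent Trbv segment of these cells in IR CD8+, Trbv12-2, was in 3.50% of them and in 2.46% of the other cells.

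Among the control libraries, a copy group was counted as different when its usage differed at least 2-fold and at least 10 UMIs were expected in the library with fewer Trav UMIs. Between control DN and control CD4+, 5 of 40 groups that could be judged were higher and 6 lower in DN (27.5%), against 9.75% of all 15605 features judged by the same rule on their share of retained UMIs. The median log2 ratio was 0.20 over these groups and -0.0015 over all features. Trav7-6 was at 0.322% in control DN against 2.22% in control CD4+, a ratio of 0.145 (0.0457 to 0.356), and Trav21 at 0.644% against 3.38%, a ratio of 0.191 (0.0889 to 0.366). Trav17 was at 0.258% against 1.16%, from 4 and 35 UMIs, 25 of the latter in 5 cells. With cells thinned to 1000 UMIs it had 0 of 186 and 6 of 490 Trav UMIs, too few to give a direction. In the other direction, Trav6-6 was 3.53-fold (2.33 to 5.42) higher in DN and Trav3-1 2.78-fold (1.34 to 5.95). The 2 copies of the segment that was left out, Trav11d and Trav11n, were together 4.54-fold (1.99 to 11.3) higher in DN, from 21 and 9 UMIs. Trav11d had no unique window, so its reads are hard to tell from those of Trav11. With cells thinned to 1000 UMIs, these copies had 3 of 186 and 3 of 490 Trav UMIs. Trav3-1 then had 2 of 186 and 2 of 490, and neither gave a direction.

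Between control DN and control CD8+, 12 of 35 groups were higher in DN and 4 lower (45.7%, against 15.1% of all features; median log2 ratios 0.64 and -0.016). The lower ones were Trav4-4 at 0.0794 (0.0576 to 0.107) of control CD8+, Trav7-6 at 0.140 (0.0446 to 0.334), Trav17 at 0.208 (0.0553 to 0.556) and Trav6-7 at 0.296 (0.191 to 0.442). After thinning, Trav17 had 0 of 186 and 13 of 939 Trav UMIs, and no direction was given. The highest ratio was that of Trav6-6 at 5.38 (3.66 to 7.96), followed by Trav7-5 at 3.48 (2.28 to 5.28) and Trav12-1 at 3.41 (1.86 to 6.21). Between control CD4+ and control CD8+, 10 of 43 groups were higher in CD4+ and 2 lower (27.9%, against 10.7%; medians 0.61 and -0.024). Trav7-1 was 6.18-fold (2.70 to 15.9) higher in CD4+, Trav21 3.604-fold (2.58 to 5.09) and Trav12-1 3.50-fold (2.12 to 5.90). Trav7-1 rested on 25 and 8 UMIs. After thinning it had 2 of 490 and 2 of 939 Trav UMIs, too few to give a direction. Trav4-4 was at 0.230 (0.201 to 0.262) and Trav3-4 at 0.417 (0.168 to 0.907) of control CD8+. Trav3-4 had 8 UMIs in control CD4+ and 38 in control CD8+, 22 of the latter in 5 cells. Counted as cells, it made up 0.378% and 0.700% of detections, short of 2-fold. With cells thinned to 1000 UMIs it had 0 of 490 and 3 of 939 Trav UMIs, too few to give a direction. Trav6-7 had the next lowest ratio, 0.527 (0.413 to 0.667), short of 2-fold.

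Usage is a share, so the 142 cells lowered the share of every other group in control CD8+. With all cells of 5 or more Trav4-4-dv10 UMIs left out, a setting added after seeing the data, 6 of 38 groups were higher and 7 lower between control DN and control CD8+, and 10 of the 16 calls stayed in the same direction. Between control CD4+ and control CD8+, 7 were higher and 3 lower, with 7 of 12 calls kept. Trav4-4 was not among them and its direction turned, at 5.40% in control CD4+ and 4.49% in control CD8+. Since the cells left out were chosen by this segment, its fall in control CD8+ was set by that choice. Between control DN and control CD4+ all 11 calls were kept. Trav4-4 itself then had 178 UMIs and a usage of 4.49% (3.87 to 5.18) in control CD8+.

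Between IR and control CD4+ cells, 3 of 35 copy groups were higher with IR and 4 lower (20%), which was below the 27.3% of all features that differed 2-fold. The median log2 ratio was -0.11 over these groups and -0.19 over all features. Trav19 was at 2.28% in IR CD4+ (32 UMIs) and 0.794% in control CD4+ (24 UMIs), a ratio of 2.87 (1.64 to 5.09). Trav6-3 was at 2.84 (1.57 to 5.18) and Trav7-3 at 2.01 (1.29 to 3.13) of control. Trav7-6 was at 0.289 (0.127 to 0.582), Trav4-4 at 0.399 (0.285 to 0.549) and Trav9-4 at 0.434 (0.268 to 0.677). Without the cells of 5 or more Trav4-4-dv10 UMIs, 5 of these 7 calls stayed, and Trav4-4 and Trav7-3 no longer passed 2-fold, with Trav4-4 at 5.40% in control CD4+ against 3.28% in IR CD4+. This setting removed 12 cells from control CD4+ and 0 from IR CD4+, chosen by Trav4-4-dv10 itself. The fall of Trav4-4 in control CD4+ was therefore set by the choice.

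Between IR and control CD8+ cells, 4 of 12 groups were higher with IR and 4 lower (66.7%, against 27.0% of all features; median log2 ratios -0.065 and -0.34). Trav16 was at 2.78 (2.41 to 3.20) of control, Trav14-3 at 2.44 (1.70 to 3.46) and Trav3-3 at 2.09 (1.51 to 2.83). Trav4-4 was at 0.0416 (0.0207 to 0.0746), Trav7-6 at 0.292 (0.0935 to 0.699) and Trav13-4 at 0.382 (0.151 to 0.806). Without the cells of 5 or more Trav4-4-dv10 UMIs, 2 of 25 groups were higher and 8 lower, and 4 of the 8 calls stayed. Trav16 was then at 1.85 (1.60 to 2.13) of control, Trav14-3 at 1.65 (1.15 to 2.34) and Trav3-3 at 1.52 (1.10 to 2.07), none of them past 2-fold, and Trav4-4 was at 0.330 (0.162 to 0.606). Trav7-6, which lies 3 segments downstream of Trav4-4-dv10, was at 0.194 (0.0619 to 0.463). Trav19 was at 2.45 (1.41 to 4.14) and Trav7-3 at 2.62 (1.59 to 4.23), the 2 groups counted as higher.

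DN cells could hardly be compared after IR, because IR DN held 237 Trav UMIs. With control DN, 0 of 6 groups differed 2-fold (19.1% of all features; median log2 ratios -0.13 and -0.24), and Trav16 was at 1.65 (1.23 to 2.19) of control. With IR CD4+, 0 of 4 groups differed (11.5% of all features; medians -0.15 and 0.041), and with IR CD8+ 0 of 4 (13.4%; medians -0.49 and 0.13). The ratio of Trav16 was 1.47 (1.09 to 1.95) over IR CD4+ and 0.714 (0.532 to 0.947) over IR CD8+. Between IR CD4+ and IR CD8+, 2 of 21 groups were higher in CD4+ and 1 lower (14.3%, against 12.7%; medians 0.32 and 0.051): Trav4-4 at 2.21 (1.13 to 4.73), Trav13-4 at 2.04 (0.865 to 5.54), from 27 and 7 UMIs, and Trav16 at 0.486 (0.407 to 0.580). The 9 comparisons share libraries and are not independent of each other.

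The 10 dv segments together took 21.6% (20.1 to 23.1), 45.8% (44.6 to 47.1) and 12.2% (10.6 to 13.9) of Trav UMIs in the control CD4+, CD8+ and DN libraries, and 16.5%, 15.2% and 16.5% in the IR libraries. Leaving Trav4-4-dv10 out of both sums brought control CD8+ to 15.8% (14.7 to 17.0) and control CD4+ to 14.6% (13.3 to 15.9), and control DN, at 9.68% (8.23 to 11.3), was then the lowest of the 6 libraries. All 10 had a UMI, but Trav15d-1-dv6d-1 and Trav15d-2-dv6d-2 had no more than 6 in any library. Trav21-dv12 had 102 UMIs in control CD4+ against 56 and 10 in control CD8+ and DN, and Trav13-4-dv7 had 69, 57 and 7. Of the copies of Trav11, Trav11d had 8 UMIs in control DN but 0 in the other 5 libraries, and Trav11n had 9, 4 and 13 in the control CD4+, CD8+ and DN libraries and 2, 0 and 0 in the IR libraries.

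The segments were also ordered along the locus and split into a distal part (43 segments, farthest from Trac), a middle part (42) and a proximal part (42). The proximal part took 67.8% (66.1 to 69.4), 74.8% (73.7 to 75.9) and 46.5% (43.95 to 49.0) of Trav UMIs in control CD4+, CD8+ and DN. In IR CD4+, CD8+ and DN it took 58.4% (55.8 to 61.0), 53.6% (49.9 to 57.2) and 43.0% (36.6 to 49.6). With Trav11 left out, DN cells were thus lowest in both conditions, and the gap did not rest on Trav4-4-dv10. Without Trav4-4-dv10 the proximal share was 64.9%, 60.9% and 44.9% in the controls and 56.996%, 52.9% and 41.8% in the IR libraries. Trav11 itself starts at 53519303, within the proximal part. It made up 15.9% of all Trav UMIs of control DN and 10.2% of those of IR DN, against at most 6.15% elsewhere. Leaving Trav11 out therefore lowered the proximal share most in DN cells, and the share with it was not computed. The middle part took 39.7% in control DN and 47.7% in IR DN, against 23.0% and 18.1% in control CD4+ and CD8+ and 28.8% and 39.5% in IR CD4+ and CD8+. The parts sum single copies, so these shares also depend on which copies can be counted. For example, proximal Trav6-6 and distal Trav6d-6 had no unique window, against 88.7% of the windows of Trav6n-6 in the middle part. The distal part stayed between 6.88% in IR CD8+ and 13.9% in control DN.

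**Figure D5:**
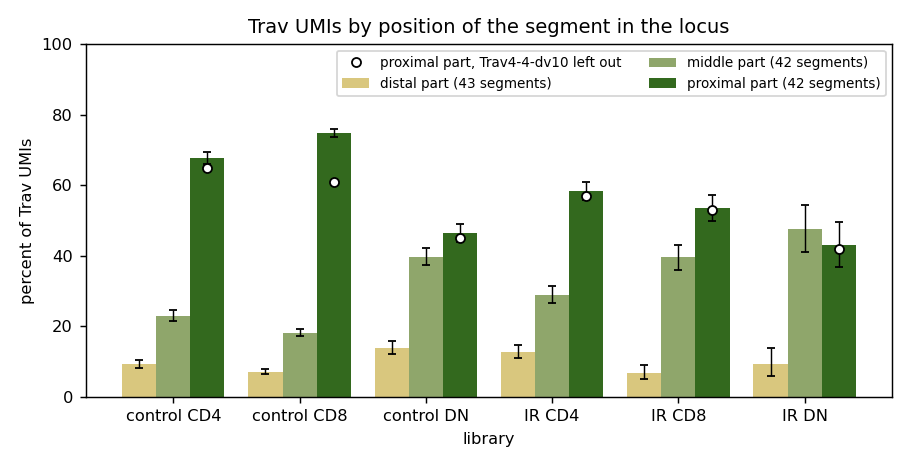
Bars give the percent of Trav UMIs from the distal, middle and proximal parts of the locus, with exact 95% binomial intervals, and open circles the proximal share without Trav4-4-dv10. Trav11, which lies in the proximal part, is left out throughout. The proximal bar is highest in control CD8+ (74.8%) and lowest in IR DN (43.0%).

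The copy letters gave the same picture in another form, since d and n copies lie upstream of most segments without a letter. The same limits hold here, because Trav11 has neither letter and single copies are summed. Segments with neither letter took 74.0%, 79.5% and 57.7% of the control CD4+, CD8+ and DN libraries and 67.6%, 60.1% and 52.7% of the IR libraries. The n copies took 17.3% (16.005 to 18.7), 15.1% (14.2 to 16.05) and 28.3% (26.1 to 30.6) of the controls and 20.4%, 30.8% and 34.6% of the IR libraries.

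Where a cell had both a Trav and a Traj UMI, those with a proximal Trav had an upstream Traj more often in control CD4+ and CD8+, with intervals that overlapped neither of the others. The Traj cluster was split into 30 upstream segments, nearest to the Trav segments (Traj61 to Traj32), and 30 downstream ones. In control CD4+, an upstream Traj was found in 33.6% (30.1 to 37.2) of 712 cells with a proximal Trav, against 12.1% (8.13 to 17.1) of 223 with a middle and 20.2% (12.6 to 29.8) of 94 with a distal one. In control CD8+ the shares were 39.4% (36.0 to 42.8) of 803, 17.6% (13.2 to 22.7) of 267 and 13.0% (7.49 to 20.6) of 115 cells. In control DN they were 11.1% (7.45 to 15.8) of 243, 4.83% (2.34 to 8.70) of 207 and 2.44% (0.297 to 8.53) of 82 cells. DN cells had the lowest share at each Trav position. Distal and middle segments had no common order, and their intervals overlapped in all 3 libraries. In control DN the proximal share was the highest, but its interval overlapped both of the others. IR libraries, with 322 to 1128 Traj UMIs, were not split this way. Which Traj was joined to the Trav of a cell was not determined.

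Trav UMIs of 1 cell mostly named 1 copy group. Among pairs of Trav UMIs within a cell, 78.7%, 91.6% and 85.2% named the same group in the control CD4+, CD8+ and DN libraries and 81.0%, 89.8% and 79.3% in the IR libraries, against 4.21%, 15.4%, 4.86%, 5.51%, 14.9% and 8.55% of pairs drawn from the whole library. With each cell weighted equally the values were 69.7%, 72.3%, 75.3%, 78.9%, 82.8% and 80.1%. UMIs of 1 cell were thus not independent draws, which the intervals of UMI sums, shares and ratios leave out. Counted as cells, 387 of 603 control CD4+ cells with at least 2 Trav UMIs (64.2%, 60.2 to 68.0) named only 1 group, as did 610 of 969 control CD8+ cells (63.0%), 194 of 268 control DN cells (72.4%), 154 of 202 IR CD4+ cells (76.2%), 75 of 91 IR CD8+ cells (82.4%) and 20 of 26 IR DN cells (76.9%, 56.4 to 91.03). A T cell can transcribe a second rearranged alpha gene, and free RNA and doublets can also add UMIs of other groups, and these were not told apart.

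Where a cell named more than 1 group, the groups were neighbours in the locus more often than in pairs drawn from the library in the 3 controls and IR CD4+, whereas the intervals of IR CD8+ and IR DN held the library value. Each group was placed at its copy nearest to Trac, although its other copies lie farther upstream (Trav16n, for example, holds most UMIs of the Trav16 group), so distances between groups with several copies are uncertain. Of the pairs of groups found in 1 cell, 30.8% (25.3 to 36.8) of 263 in control CD4+, 32.4% (27.9 to 37.1) of 423 in control CD8+ and 30.1% (20.5 to 41.2) of 83 in control DN lay within 3 places of each other, against 14.5%, 16.5% and 14.3% for pairs drawn from all detections of the library. In IR CD4+ it was 28.0% (16.2 to 42.5) of 50 pairs against 14.01%, in IR CD8+ 31.3% (11.02 to 58.7) of 16 against 14.1%, and in IR DN 12.5% (0.316 to 52.7) of 8 against 16.7%. Trav3-3 with Trav9-4, neighbours in the locus, was the leading pair in control CD4+ (10 cells). Trav6-7 with Trav7-6, also neighbours, led in control CD8+ with 28 cells, and Trav3-3 with Trav4-4 followed with 20. Pairs farther apart on this order were found too: Trav10 with Trav16 was in 9 control CD4+ cells and led in IR CD4+ with 3, and Trav9-1 with Trav4-4 was in 14 control CD8+ cells.

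This pair was picked after its count was seen. Trav6-7 and Trav7-6 were found together in 28 control CD8+ cells and in 0 cells of the other 5 libraries, although Trav6-7 alone was in 67 control CD4+ and 62 IR CD4+ cells. Trbv3 was in 13 of the 28 cells (46.4%, 27.5 to 66.1), in 58 of 225 with Trav6-7 alone (25.8%, 20.2 to 32.0) and in 27 of 97 with Trav7-6 alone (27.8%, 19.2 to 37.9), against 7.16% (6.64 to 7.72) of the 8963 control CD8+ cells with neither. Trbv3 was found in 7.95% of all control CD8+ cells, against 0.193% to 1.68% in the other 5 libraries.

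Of 11 other genes of the receptor and its assembly (Trac, Trbc1, Trbc2, Cd3d, Cd3e, Cd3g, Cd247, Rag1, Rag2, Dntt and Trdc), 8 or 9 could be judged in each comparison and 0 to 2 differed 2-fold, none of them higher. Cd247, the zeta chain of the receptor complex, was lower in IR DN, at 119 CPM against 276 CPM in control DN and 295 CPM in IR CD4+. Trdc was lower in DN than in CD8+ cells, at 2.53 against 5.59 CPM in the controls and 1.99 against 4.56 CPM in the IR libraries. Dntt, which adds bases at the joins, was at 0.132 CPM (8 UMIs) in control DN against 0.593 and 0.943 CPM in control CD4+ and CD8+. The recombinase genes Rag1 and Rag2 had 0 UMIs in the kept cells of all 6 libraries, which allows up to 0.664 CPM (3 UMIs) in the shallowest, IR DN, where the exact interval reaches 0.817 CPM. Traj segments summed to 132, 110 and 99.2 CPM in the controls and 72.2, 48.9 and 88.1 CPM in the IR libraries, an order unlike that of Trav. Trdv segments stayed between 0.641 and 5.92 CPM.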

How the data were processed

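The authors made 10x Genomics 3' v3.1 libraries and ran Cell Ranger at default settings on mm10. Their methods name version 6.0.1, as do the headers of the IR files, whereas the control headers name 5.0.1. The deposited matrices hold raw UMI counts with no normalization. The sources used here do not say whether strand or introns were used. Groups were taken from the sample titles.

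Following the filters of the study, barcodes under 500 features or over 20% mitochondrial UMIs were dropped, and so were the 5% of each library with most UMIs. The study's filter on rare features and its removal of clusters were not repeated, so the cells kept here are not the same set as in the study. No doublet caller was run. Totals excluded 103 features, namely Malat1 and the genes of mitochondria and of ribosomal proteins. Library sums were scaled to CPM. Usage was computed per segment, copy group and family without Trav11. With 1 library per group there was no test. Sums were given exact Poisson intervals, shares Clopper-Pearson intervals and ratios the exact conditional interval, all at 95%. For UMI counts these treat each UMI as independent and make no allowance for UMIs of the same cell. A count of 0 was set to 3 UMIs where usage was judged against 2-fold and in the upper limit given for a count of 0, and no direction was given where this left none. Thinning to 1000 UMIs per cell was without replacement. TMM factors came from edgeR 4.0.16 (R 4.3.3), and the rest was computed in Python 3.11.15 with scipy 1.17.1. The counting rules were tested on simulated counts.

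Named segments were the 12 of highest mean usage and, in each of the 9 comparisons, the 3 copy groups with the largest ratio in each direction, with the dv segments as a group, the copies of Trav11 and the listed receptor genes. The members, lists and rules were chosen with earlier results of these data known. Positions, transcripts and printed sequences are from GENCODE M21 (GRCm38). No protein or promoter sequence of the segments was used here. A gene of the T cell state list is not reported here.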

Additional observations from a re-analysis of the deposited data

Results flagged for a closer look

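The barcodes that the filters removed were not part of any comparison above, and 2 IR sets held more Trav than the control set of the same subset. In IR CD4+, 666 removed barcodes held 207 Trav UMIs, or 81.6 CPM (70.9 to 93.6), against 304 UMIs and 35.01 CPM (31.2 to 39.2) in 824 removed barcodes of control CD4+. In IR DN, 564 removed barcodes held 40 Trav UMIs, or 43.6 CPM (31.2 to 59.4), against 216 UMIs and 23.5 CPM (20.5 to 26.8) in 612 of control DN. The difference had the direction seen in the kept cells of both subsets. The removed barcodes of control CD8+ held another 17 cells with 5 or more Trav4-4-dv10 UMIs, and those of the other 5 libraries 0.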

How the results depend on the processing

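Each alternative was computed for the results it bears on. Of 540 usage values of the 10 leading copy groups, 499 stayed within their counting interval, and of 417 named usage ratios, 363 kept their direction and their side of 2-fold, 46 no longer passed it, 7 newly passed it and 1 turned. After thinning, 6 more ratios had too few UMIs to give a direction, those of Trav11, Trav3-1 and Trav17 for control DN over control CD4, Trav17 for control DN over control CD8, and Trav7-1 and Trav3-4 for control CD4 over control CD8. No paired analysis was possible because each group had 1 library and no result came from a test. Leaving out a replicate was not possible for the same reason. For the summed Trav level (CPM), keeping the removed features in the total gave 47.2, 96.3, 20.03, 55.6, 62.1 and 36.6 CPM in the libraries of control CD4, CD8, DN and IR CD4, CD8, DN, thinning gave 66.9 and 144 CPM in control CD4 and CD8, no cell filters 56.1 and 126 CPM, and the top 5% of barcodes kept 56.2 and 126 CPM. The percent of cells with a Trav UMI was 20.3, 28.0, 12.6, 11.1, 9.61 and 4.76 without thinning and 2.28, 3.94, 0.942, 2.38, 2.47 and 1.62 at 500 UMIs. The effective number of copy groups by single segments was 33.5, 32.4, 13.8 and 22.5 in control DN, IR CD4, IR CD8 and IR DN, and by cells 17.8 in control CD8. The percent of Trav UMIs in the proximal part was 65.3 in control CD8 by cells, and 69.8 and 76.0 in control CD4 and CD8 after thinning. The percent of Trav UMI pairs within a cell that name 1 copy group was 87.6, 89.4, 80.0, 75.9 and 94.7 in control CD4, CD8, DN and IR CD4, CD8 after thinning, and 88.8 in control CD8 both without cell filters and with the top 5% kept.

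The number of copy groups past 2-fold moved most. In the order control DN over control CD4, control DN over control CD8, control CD4 over control CD8, IR CD4 over control CD4, IR CD8 over control CD8 and IR DN over control DN, thinning gave 1, 2, 5, 2, 4 and 1, and families gave 4, 5, 5, 2, 2 and 1. Counting cells gave 10, 5 and 1 for control DN over control CD8, control CD4 over control CD8 and IR CD4 over IR CD8. A minimum of 20 expected gave 7, 9, 1 and 4 for control DN over control CD4, control DN over control CD8, IR CD4 over IR CD8 and IR CD8 over control CD8. For IR DN over IR CD4, IR DN over IR CD8, IR CD4 over IR CD8, IR CD4 over control CD4, IR CD8 over control CD8 and IR DN over control DN, a minimum of 5 gave 2, 1, 9, 11, 19 and 1, and no minimum gave 8, 14, 17, 14, 25 and 8, with 25 for control DN over control CD8. Single segments gave 17, 1, 5 and 11 for control DN over control CD4, IR DN over IR CD8, IR CD4 over IR CD8 and IR CD4 over control CD4, and no cell filters gave 5 for IR CD4 over IR CD8. Leaving out the cells with at least 5 Trav4-4-dv10 UMIs, chosen after seeing the data, gave 88.6 CPM, an effective number of 15.99, a proximal 62.2% and 6.72% of cells with a Trav UMI in control CD8, a log2 usage ratio of Trav4-4 that turned to 0.27 for control CD4 over control CD8, and same-group pairs of 76.6%, 76.1% and 79.6% in control CD4, CD8 and DN. There, 7 of 47 named ratios changed their call or direction. Other than where fewer UMIs, cells or features entered by construction, the cause was not tested. The 237 Trav UMIs of IR DN limit every comparison with it.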
